A study of Mus musculus with 42 samples.

Results

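The lung response to the combustion product benzo(k)fluoranthene (BkF) was examined with the dosed animals taken as 1 group. The group was made by array title: the 11 lung arrays titled D1, D2 or D3 were set against the 4 lung arrays titled D0, so that 15 of the 42 arrays of the series were used. All animals were male Muta™Mouse of about 11 weeks, a transgenic strain that carries a bacterial reporter for mutation assays in every group, controls included. They were gavaged daily for 28 days with BkF in olive oil, and tissue was taken 72 hours after the last gavage. D0 was olive oil alone (4 mice), D1 was 25 mg/kg-bw/day (3 mice), D2 was 50 mg/kg-bw/day (4 mice) and D3 was 100 mg/kg-bw/day (4 mice), and each lung array held RNA from a different mouse.

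Pooling doses asks which genes differed from the vehicle on average over the treated lungs, and it gives most power to genes whose change was of similar size at all 3 dose levels. BkF belongs to the polycyclic aromatic hydrocarbons, several of which bind the aryl hydrocarbon receptor (AhR), a ligand-activated transcription factor that pairs with Arnt and binds a short DNA element near genes such as Cyp1a1. The lung is a place where these genes can be induced strongly, because airway, alveolar and endothelial cells carry the receptor. The lung also holds natural killer cells, lymphocytes that kill target cells with granzymes and perforin and that carry, in mice, receptors of the Ly49 family. Rare neuroendocrine cells of the airway make gastrin-releasing peptide, the product of Grp.

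Every value below is a log2 ratio of the lung RNA (Cy5) to a universal reference RNA pooled from 11 mouse cell lines (Cy3), normalised by loess within the array, and every change is a difference of such ratios. The reference was always in Cy3, and no dye swap was made. The scanner software marked between 22607 and 33382 probes per lung array as well above background, and the number of arrays limits the precision. Each slide held 1 D0 array with the D2 and D3 arrays and, on slides 1 to 3, the D1 array, so slide was fitted as a block. The arrays of every slide lay in the same order of dose by column, so column on the slide and dose cannot be told apart. The added spike-in controls were 0.12 higher in log2 ratio in the treated arrays than in the vehicle arrays of the same slides, and 0.38 higher at D3, against -0.02 at D1 and -0.04 at D2. D3 mouse 20 read highest, and without it these values were 0.03 for all treated arrays and 0.24 at D3. All 7 markers of alveolar type 2 cells, the cells that make surfactant, were well above background on all 15 arrays. The lung of D2 mouse 12 stood apart, with a skeletal muscle marker score of 5.28 where no other lung exceeded 0.07, and an oesophageal squamous score of 3.98 where no other exceeded 0.09.

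In the pooled comparison 17 of 31786 probes passed (limma with slide as a block, adjusted p of at most 0.05 and at least 1.5-fold), which is 0.0535% of the probes tested. Of these, 5 were higher (0.0157%) and 12 were lower (0.0378%) in treated lungs. Symbols were available for 13 of the 17 probes, which stand for 12 genes. A further test asked whether the 3 doses differed among themselves, and limma's moderated F-test passed 0 of the 31786 probes (smallest adjusted p 0.645, unadjusted p under 0.05 for 2440). Of the 17 probes, 13 met the rule for a similar amount at every dose: all 3 dose effects had the sign of the pooled effect and lay within 1.5-fold of each other. These level probes were Cst8, which rose, and all 12 probes that fell, and the pooled folds of their measured ratios ran from 1.77 to 3.62. Of the 12 probes that fell, 8 were well above background on fewer than 11 treated arrays. A reading at background is the same at any dose, so for these 8 a similar amount cannot be told apart from a floor, and both ends of the range of folds are such probes (Gpr141b and Grp). The other 4, which are Gzmb, Klra16, A_55_P2170349 and A_55_P2129469, and also Cst8, were well above background on all 11 treated arrays. For all 13 the 95% intervals of the 3 differences between doses lay within 1 log2 unit of 0, and for 6 of the 13 they lay within 1.5-fold (Gzmb, A_55_P2129469 and, among probes not well above background on every treated array, Gpr141b, Klra7, the dim Septin3 probe and the brighter Slc5a12 probe). The 4 probes that rose but were not level were Cyp1a1, Cyp1b1, Ahrr and the unnamed probe A_66_P115580.

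**Figure D1:**
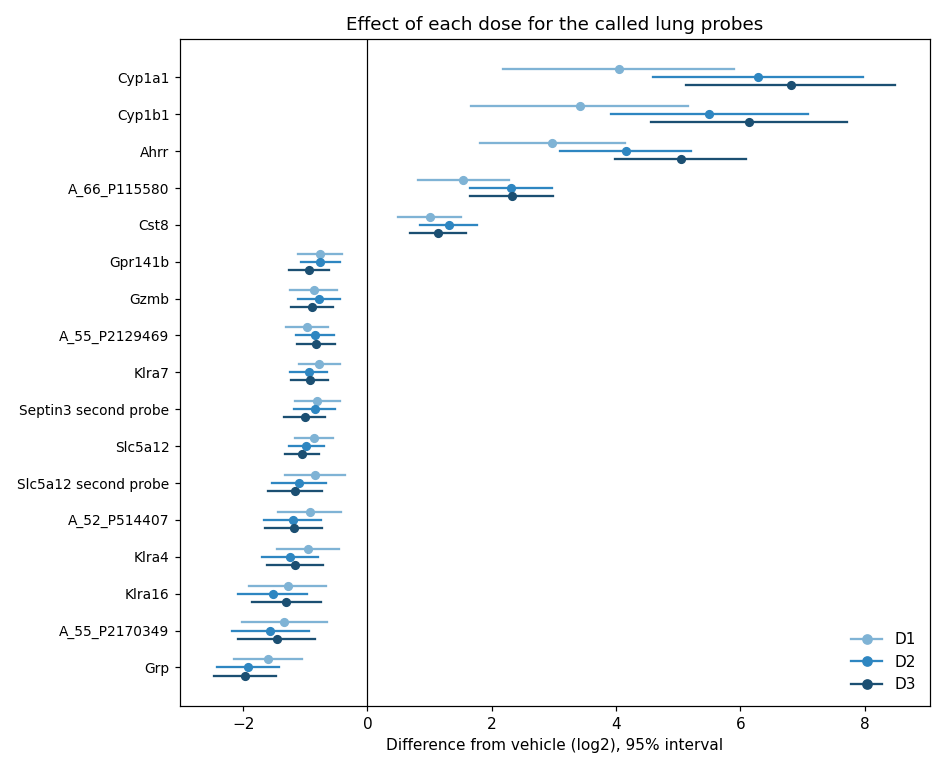
Difference from vehicle at D1, D2 and D3 (log2, points) with 95% intervals (lines) for the 17 called lung probes, from the fit with a term for each dose and for slide. The effects of the 12 probes that fell lie close together, which the rule for a level probe asks for, and 8 of the 12 were at or near background in some treated lungs. Cyp1a1 went from 4.04 at D1 to 6.81 at D3.

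Among the called probes the largest fall was that of Grp. Its log2 ratio was 2.78, 2.13, 2.76 and 1.46 in D0 mice 1, 2, 3 and 4, and in the 11 treated mice it ranged from 0.01 to 0.93 with a median of 0.37. No treated lung reached the lowest vehicle lung. The pooled difference of the measured ratios was -1.86 ± 0.19 (SE), with an adjusted p of 0.0042 in limma, and it ran from -4.23 to -1.58 over the settings tried. Against the vehicle the effect was -1.60 at D1, -1.92 at D2 and -1.97 at D3. The difference between D3 and D1 was -0.37 with a 95% interval from -0.92 to 0.18. The treated minus vehicle difference within a slide was -2.51, -1.77, -1.07 and -2.09 on slides 1 to 4. Grp was well above background in all 4 vehicle lungs and in 3 of 11 treated lungs, and because background was not subtracted, the ratio of a dim probe is pulled towards that of the background. The size of the fall and its likeness between doses are limited by this.

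The other 7 markers of neuroendocrine cells did not follow Grp. Their pooled differences lay between -0.04 for Uchl1 and 0.37 for Calca, the gene of calcitonin and its related peptide, with limma adjusted p from 0.717 upwards. Chga and Chgb, which encode granule proteins of neuroendocrine cells, had differences of 0.22 ± 0.22 (SE) and 0.07 ± 0.11 (SE). In a piece of whole lung, fewer cells of a type and less RNA per cell cannot be told apart.

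Slc5a12, which encodes a sodium-coupled transporter of lactate and other monocarboxylates, fell on both of its probes. The brighter probe read 1.69, 1.28, 1.4 and 0.85 in D0 mice 1, 2, 3 and 4, and the treated lungs ranged from -0.10 to 0.84 with a median of 0.24. The groups did not overlap, though D2 mouse 15 at 0.84 came close to the lowest vehicle lung. The difference was -0.98 ± 0.10 (SE, adjusted p = 0.0042 in limma), with -0.87, -0.98 and -1.05 at D1, D2 and D3. Over 26 alternative settings it ran from -2.24, with the scanner's own log ratio (adjusted p = 0.5), to -0.86, and the call was lost in 4. The second probe fell by 1.06 (adjusted p = 0.040), and its groups overlapped. Its call was lost in 17 of 26 alternative settings and kept in 4 of 15 fits that left out 1 array. Both probes were dim, well above background in all 4 vehicle lungs and in 3 of 11 treated lungs.

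Receptors of the Ly49 family, lectin-like proteins by which mouse natural killer cells read MHC class I molecules, made up 3 of the 12 named genes. These were 3 of the 7 kept Ly49 genes, beside 0.0378% of all probes called lower. Klra16 read 0.30, -0.54, 0.61 and -0.11 in D0 mice 1, 2, 3 and 4, and treated lungs lay between -2.36 and -0.68 with a median of -1.25. Every treated lung was below every vehicle lung. The pooled difference was -1.38 ± 0.20 (SE, limma adjusted p = 0.028), with -1.29 at D1, -1.53 at D2 and -1.31 at D3. The second Klra16 probe, which is dimmer, had a difference of -0.44 and an adjusted p of 0.124.

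Klra4 read -0.65, -1.54, -0.10 and -0.75 in D0 mice 1, 2, 3 and 4 and between -2.53 and -1.14 in treated lungs, with a median of -1.98. D0 mouse 2 lay within the treated range, so the groups overlapped, although the treated lungs were lower than the vehicle lung on each of the 4 slides. The difference was -1.14 ± 0.17 (SE, limma adjusted p = 0.028), and the effects were -0.96, -1.24 and -1.17 at D1, D2 and D3. Klra7 read 0.74, 0.49, 1.47 and 0.53 in D0 mice 1, 2, 3 and 4 and between -0.49 and 0.21 in treated lungs, without overlap. Its difference was -0.89 ± 0.11 (SE, limma adjusted p = 0.015), with -0.77, -0.95 and -0.93 at D1, D2 and D3. Genes of this family are near-identical to one another and differ in number between mouse strains, so a probe may measure more than the member it is named for.

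Gzmb encodes granzyme B, a serine protease of cytotoxic granules. It read 1.75, 1.67, 2.34 and 1.34 in D0 mice 1, 2, 3 and 4, and treated lungs ranged from 0.39 to 1.65 with a median of 0.79. D2 mouse 15 and D3 mouse 19, both on slide 4, exceeded the lowest vehicle lung, and within every slide the treated lungs were lower on average, by 0.64 to 1.00. The pooled difference was -0.84 ± 0.12 (SE, limma adjusted p = 0.028), and at D1, D2 and D3 the effects were -0.87, -0.78 and -0.89, the narrowest spread of the 13 level probes. Gzmb was well above background on all 15 arrays.

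**Figure D2:**
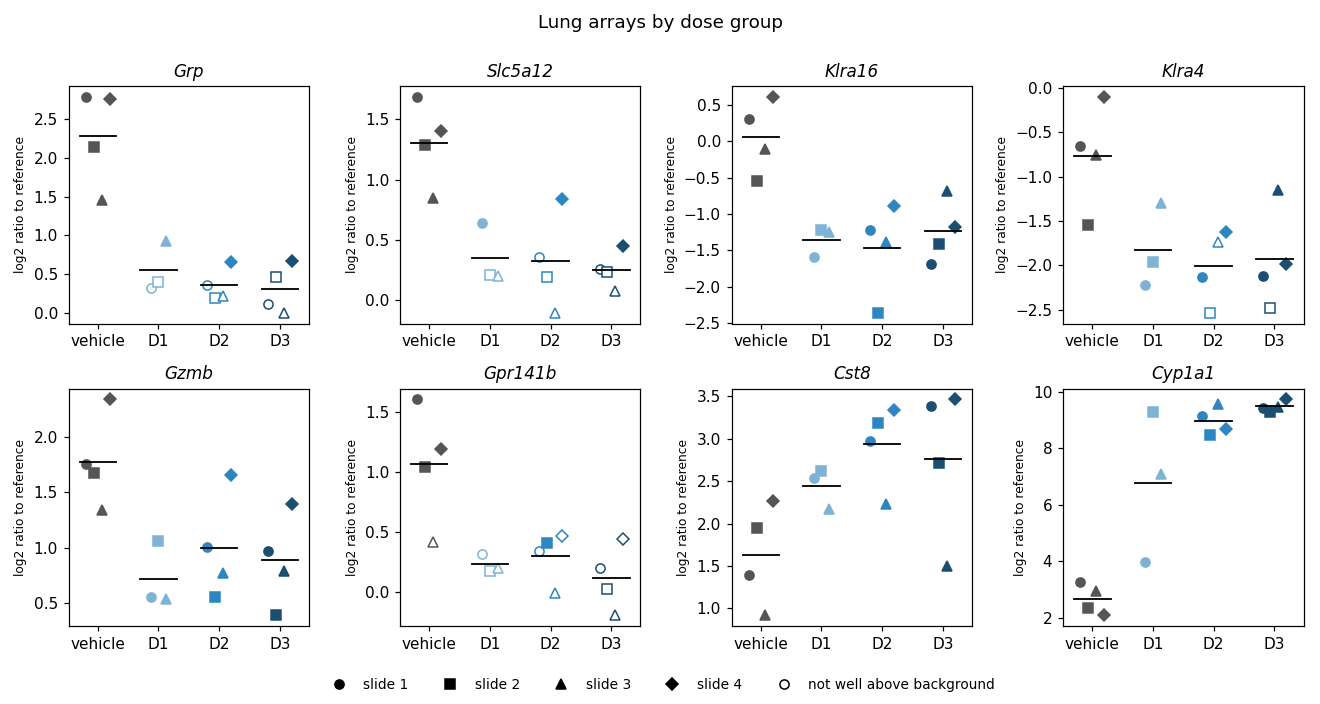
Log2 ratio to the reference on each of the 15 lung arrays for 8 called genes, by dose group (vehicle, D1 25, D2 50 and D3 100 mg/kg-bw/day), with the group mean as a line, slide by symbol, and open symbols where the probe was not well above background. Grp, Slc5a12 and Klra16 were below the vehicle range in all 11 treated lungs, and Cyp1a1 was lowest among treated lungs in D1 mouse 7 at 3.96.

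Gpr141b, a G protein-coupled receptor gene, fell by 0.83 ± 0.12 (SE, limma adjusted p = 0.028), with -0.76, -0.76 and -0.94 at D1, D2 and D3. It read 1.60, 1.04, 1.19 and 0.41 in D0 mice 1, 2, 3 and 4, and treated lungs lay between -0.19 and 0.47. The overlap came from D0 mouse 4, in which the probe was not well above background, and only 1 of 11 treated lungs was well above it. A dim probe of Septin3, a GTP-binding septin gene known from neurons, fell by 0.90 (adjusted p = 0.025), but the brighter Septin3 probe had a difference of 0.02 ± 0.08 (SE, adjusted p = 0.964). The Septin3 call therefore rests on a probe that was well above background in 3 of 4 vehicle and 2 of 11 treated lungs.

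The probes that fell without a gene symbol found here were A_55_P2170349, A_52_P514407 and A_55_P2129469. Their pooled differences were -1.47, -1.13 and -0.87, with limma adjusted p of 0.030, 0.030 and 0.019. A_55_P2170349 read 0.48, -0.31, 0.94 and -0.08 in D0 mice 1, 2, 3 and 4 and between -2.12 and -0.39 in treated lungs, without overlap. Klra16 read close to it, with 0.30, -0.54, 0.61 and -0.11 in the same vehicle lungs and between -2.36 and -0.68 in treated lungs. Whether these probes measure separate genes was not tested. Of the 13 level probes, 7 showed no overlap between the 11 treated and 4 vehicle lungs, all in the downward direction, where 0.164% of all probes had every treated lung below every vehicle lung and 0.154% the reverse.

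Cst8, a member of the cystatin family of protease inhibitors known mainly from testis and epididymis, was the level gene that rose. It read 1.39, 1.95, 2.26 and 0.92 in D0 mice 1, 2, 3 and 4, and treated lungs ranged from 1.5 to 3.46 with a median of 2.71. The ranges overlapped, since D2 mouse 13, D1 mouse 9 and D3 mouse 20, all on slide 3, lay within the vehicle range while being above the vehicle lung of that slide. The difference was 1.16 ± 0.17 (SE, 2.24-fold, limma adjusted p = 0.028), and the effects were 1.00 at D1, 1.30 at D2 and 1.13 at D3. Over 27 alternative settings the difference of Cst8 ran from 0.54, with the scanner's own log ratio (adjusted p = 0.795), to 1.26, and the call was lost in 16 of them, with 7 of 15 fits that left out 1 array keeping it. The probe was well above background on all 15 arrays.

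Most level probes were dim: 10 of the 13 lay below the median kept probe in intensity. All 13 had the same sign on each of the 4 slides, which a call in a fit with slide as a term favours, so it is given as a description. For 11 of the 13 the within-slide difference was smallest on slide 3, the slide with the fewest probes well above background (22607 to 24948 per array). The part of signal strength in these differences was not tested.

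The 3 AhR target genes that passed, Cyp1a1, Cyp1b1 and Ahrr, had larger measured differences than any level probe with the main settings. With the scanner's own log ratio Grp stood at -4.23 and Cyp1a1 at 3.81, so this order depends on the processing. The D1 effects of the 3 genes were smaller than their D3 effects, without a difference between doses that passed the test. Cyp1a1, the cytochrome P450 that oxidises polycyclic aromatic hydrocarbons, read 3.29, 2.35, 2.09 and 2.96 in D0 mice 1, 2, 3 and 4. At D1 mice 7, 8 and 9 read 3.96, 9.28 and 7.10, at D2 the range was 8.46 to 9.57, and at D3 it was 9.29 to 9.73. D1 mouse 7 lay just above the vehicle range and the other treated lungs far above it. The pooled difference was 5.90 ± 0.83 (SE, 59.7-fold, limma adjusted p = 0.025), and over 27 alternative settings it ran from 3.81, with the scanner's own log ratio, to 6.55, without the low dose, with the call lost in 13. D3 exceeded D1 by 2.77 with a 95% interval from 0.90 to 4.63, and the adjusted p for a difference between the 3 doses was 0.645. D3 exceeded D2 by 0.52, with an interval from -1.17 to 2.21.

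Cyp1b1, a related P450 that also activates these hydrocarbons, read -1.93, -2.64, -2.01 and -1.42 in D0 mice 1, 2, 3 and 4 and between -0.26 and 4.37 in treated lungs, the lowest again being D1 mouse 7. Its pooled difference was 5.20 ± 0.79 (SE, 36.8-fold, limma adjusted p = 0.030), with 3.41, 5.50 and 6.14 at D1, D2 and D3. The Cyp1b1 call was lost in 16 of 27 alternative settings. Ahrr, which encodes a repressor of the receptor, read -0.65, -0.74, -0.93 and -0.25 in D0 mice 1, 2, 3 and 4 and 1.34 to 4.63 in treated lungs, with a median of 4.02. No vehicle lung had Ahrr well above background, so its fold is a bound: it was at least 17-fold higher in treated lungs (limma adjusted p = 0.023), set on the sample channel after normalisation between arrays and open to dye bias. A second, dimmer Ahrr probe had a difference of 0.59 and an adjusted p of 0.559. In D1 mouse 7, where Cyp1a1 was lowest among treated lungs, Grp was 0.33, Klra16 was -1.59 and Slc5a12 was 0.64. All lay below the vehicle range, which had to follow, because these genes were ones in which every treated lung did.

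The 250 bases before the annotated start of the 3 called AhR genes (RefSeq, build GRCm38.p6) are shown because all 3 hold the core of the element that the receptor binds. The search was for the 5-base core GCGTG on either strand (CACGC where it lies on the other strand), printed in capitals in the sequences.
Cyp1a1, chr9:57697363-57697612, plus strand: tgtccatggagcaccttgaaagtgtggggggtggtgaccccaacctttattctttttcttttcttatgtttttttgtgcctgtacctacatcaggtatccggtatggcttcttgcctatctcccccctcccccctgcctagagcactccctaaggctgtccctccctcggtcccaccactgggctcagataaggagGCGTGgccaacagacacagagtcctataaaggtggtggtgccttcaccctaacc
Cyp1b1, chr17:79715062-79715311, minus strand: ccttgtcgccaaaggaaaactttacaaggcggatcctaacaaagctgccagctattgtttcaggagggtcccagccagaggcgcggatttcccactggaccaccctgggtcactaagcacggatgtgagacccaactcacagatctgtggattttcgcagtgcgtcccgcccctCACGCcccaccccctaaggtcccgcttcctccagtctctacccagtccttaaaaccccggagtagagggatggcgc
Ahrr, chr13:74292332-74292581, minus strand: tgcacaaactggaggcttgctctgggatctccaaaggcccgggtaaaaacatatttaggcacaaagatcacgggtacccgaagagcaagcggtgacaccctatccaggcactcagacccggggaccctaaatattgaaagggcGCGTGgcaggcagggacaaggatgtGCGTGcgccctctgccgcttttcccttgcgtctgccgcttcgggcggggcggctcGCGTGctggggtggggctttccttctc
The core occurred 1 time before Cyp1a1 and 1 time before Cyp1b1, there on the opposite strand, and 3 times before Ahrr. It was present in 28.1% of all 32817 promoter windows of this length. In the window before Cst8 these letters were not found. These matches are descriptions of sequence and were not tested for binding.

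Of the 14 AhR targets listed, 12 were kept, all 12 had positive pooled differences, and 3 were called (Cyp1a1, Cyp1b1 and Ahrr), beside 0.0157% of all probes called higher. The median difference over the 12 was 0.70, beside 0.0015 over all probes, and the median dose effect was 0.55 at D1, 0.67 at D2 and 0.74 at D3. Nqo1, a quinone reductase, read -1.11, -1.31, -1.69 and -1.08 in D0 mice 1, 2, 3 and 4 and between -0.83 and 0.87 in treated lungs without overlap, a difference of 1.32 ± 0.24 (SE) with an adjusted p of 0.085. Tiparp, an ADP-ribosyltransferase that feeds back on the receptor, differed by 1.1 ± 0.33 (SE, adjusted p = 0.404), with 0.42, 1.01 and 1.67 at D1, D2 and D3. The remaining members, with adjusted p from 0.35 upwards in limma, were the conjugating enzyme genes Gsta1 (0.75), Ugt1a6b (0.64), Gsta2 (0.49) and Ugt1a6a (0.37), the aldehyde dehydrogenase Aldh3a1 (0.59), the transcription factor Nfe2l2 (0.19) and the P450 Cyp2s1 (0.10). Among 11 kept genes for the receptor and its partners, none was called and the median was -0.08, with Ahr at -0.30 (adjusted p = 0.796).

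Because Gzmb and 3 Ly49 genes were among the called genes, other genes of natural killer and cytotoxic cells were looked at in a list written after these values had been seen, and so without a test. Of its 20 genes 16 were kept, 15 had negative pooled differences, 1 (Gzmb) was called lower, and the median was -0.48, beside 0.0378% of all probes called lower and a median of 0.0015 over all probes. Of the 16 kept genes 8 were well above background on all 15 arrays. Gzma, which encodes granzyme A, had a difference of -2.16 ± 0.36 (SE) and just missed the threshold with an adjusted p of 0.059. Its dose effects were -2.08, -2.32 and -2.05 at D1, D2 and D3, and every treated lung was below every vehicle lung. Ncr1, an activating receptor that marks natural killer cells, had a difference of -0.69 (adjusted p = 0.11), and Prf1, the perforin gene, of -0.42 (adjusted p = 0.205). Cd244a was the exception in sign, at 0.21. Of the 7 kept Ly49 genes, 2 of them well above background on all 15 arrays, all had negative differences, with Klra8 at -1.08 (adjusted p = 0.087) and Klra1 at -0.04. The mean score of the natural killer list ranged from 0.07 to 0.91 in vehicle lungs and from -0.54 to 0.32 in treated lungs, so the ranges overlapped.

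Markers of T cells are given beside these, with no test of a difference between the lists. All 8 were kept, none was called, and their differences lay between -0.20 for Lck and 0.23 for Cd5, with a median of 0.04. Cd3e, a chain of the T cell receptor complex, differed by -0.03 and Cd8a by 0.06.

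**Figure D3:**
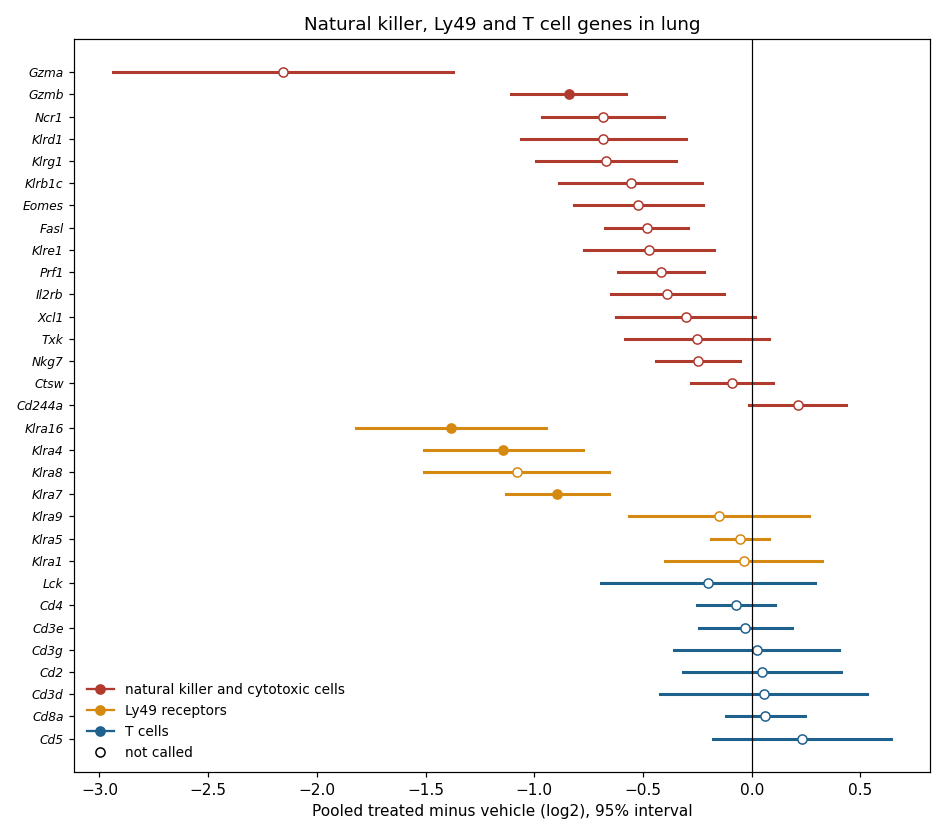
Pooled treated minus vehicle difference (log2, points) with 95% intervals (lines) for the kept genes of natural killer and cytotoxic cells, of Ly49 receptors and of T cells in lung, with filled points for called genes. Of the 16 natural killer genes 15 lie below 0, and the 8 T cell genes lie between -0.20 and 0.23.

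The other pathway lists held no called gene. The median of 19 kept Nrf2 targets, genes of the antioxidant response, was 0.21, with 17 positive and 2 negative. The median was 0.07 over 23 p53 targets, genes of the DNA damage response, in which Pmaip1 had the lowest value at -0.74 (adjusted p = 0.082) and Cdkn1a stood at 0.04. The median was -0.01 over 21 clock genes, with Dbp at 1.43 (adjusted p = 0.377) and Arntl (Bmal1) at -0.72 (adjusted p = 0.456). It was 0.17 over 23 proliferation genes, -0.16 over 17 interferon-stimulated genes, 0.11 over 10 MHC class II genes, 0.17 over 8 carboxylesterases, 0.01 over 8 linker histones and -0.14 over 15 extracellular matrix genes.

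Scores of 20 marker lists were compared between treated and vehicle lungs by exact permutation of the vehicle label within slides (192 arrangements, two-sided). The smallest p this design allows is 0.00521, which is 0.104 after adjustment over the 20 lists where 1 list alone reaches it, so no list could have passed on its own and the absence of a pass says nothing about the lists. The smallest adjusted p was 0.312. The neutrophil score was higher in treated lungs by 1.04 (unadjusted exact p = 0.0156), with vehicle lungs between -1.11 and -0.45 and treated lungs between -0.61 and 1.91. The 1.91 was D2 mouse 12, the lung with skeletal muscle markers, and the next highest score was 0.64. Of its 6 genes none was called and the median difference was 1.00. Mmp8 stood at 2.03, S100a8 at 1.75, Cxcr2 at 1.02, Retnlg at 0.98, S100a9 at 0.65 and Csf3r at -0.10, with limma adjusted p from 0.274 upwards. The heart muscle score differed by 1.02 (unadjusted exact p = 0.188), white fat by 0.64 and brown fat by 0.84. Brown fat was also highest in D2 mouse 12, at 2.34. The part of other cells or tissue in the called genes was not tested.

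At single doses, limma with slide as a block passed no D1 probe (0%, with an unadjusted p under 0.05 for 923), 11 at D2 (0.0346%) and 26 at D3 (0.0818%). These comparisons share the 4 vehicle lungs. Of the 17 pooled probes 0 passed at D1, 7 at D2 and 9 at D3. Grp had adjusted p of 0.556, 0.026 and 0.015 at D1, D2 and D3, and Gzmb had 1, 0.176 and 0.067.

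The same probes were set against liver and forestomach of the series. In liver the pooled comparison called 19 of 24720 probes (0.0769%) and in forestomach 0 of 24429 (0%, limma), where 1421 had an unadjusted p under 0.05. A test of the lung effect against the liver effect called 13 of 23383 probes (0.0556%). Gpr141b was the only one of them called in the lung: its lung effect was lower by 0.82 (95% interval -1.14 to -0.50, limma adjusted p = 0.044), with -0.83 in lung and 0.00 ± 0.09 (SE) in liver. Its probe was well above background on only 4 of 13 liver arrays and, in lung, on 3 vehicle arrays and 1 treated array, so a liver value near 0 is what background readings give and does not show that liver lacked an effect. For Klra16 the lung effect was lower than the liver effect by 1.17 (adjusted p = 0.063), with Klra16 well above background on 5 of 13 liver arrays. Cyp1a1 differed by 4.66 ± 0.99 (SE, limma adjusted p = 0.123) in liver and 1.74 ± 0.81 (SE, adjusted p = 0.806) in forestomach. Neither difference from lung passed (adjusted p = 0.842 and 0.647). The Cyp1a1 probe was well above background on 8 of 13 liver and 9 of 14 forestomach arrays, so background readings limit both differences.

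The tissues came from the same mice, but not every mouse had an array of each tissue. Liver arrays numbered 4, 2, 3 and 4 at D0, D1, D2 and D3, and forestomach arrays 4, 3, 4 and 3. Lung against liver gave 29 calls with mouse number as a random replicate block, with all 13 among them. The test of lung against forestomach with limma passed none of 23662 (0%), where 1653 had an unadjusted p under 0.05 and the smallest adjusted p was 0.059. With mouse number as a random replicate block it gave 2 calls. Klra16, Klra4 and A_55_P2170349 had differences of -0.65 ± 0.18, -0.45 ± 0.17 and -0.46 ± 0.14 (SE) in forestomach, each with an adjusted p of 0.806. Grp, which was well above background on all 14 forestomach arrays, had a difference there of 0.47 ± 0.58 (SE), and the lung effect was lower by 2.32 with a 95% interval from -3.59 to -1.05 and an adjusted p of 0.639. Cst8 had a difference of -0.23 ± 0.27 (SE) in forestomach. Gzmb, Klra7, Slc5a12 and Septin3 had too few arrays well above background in both other tissues to be compared.

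**Figure D4:**
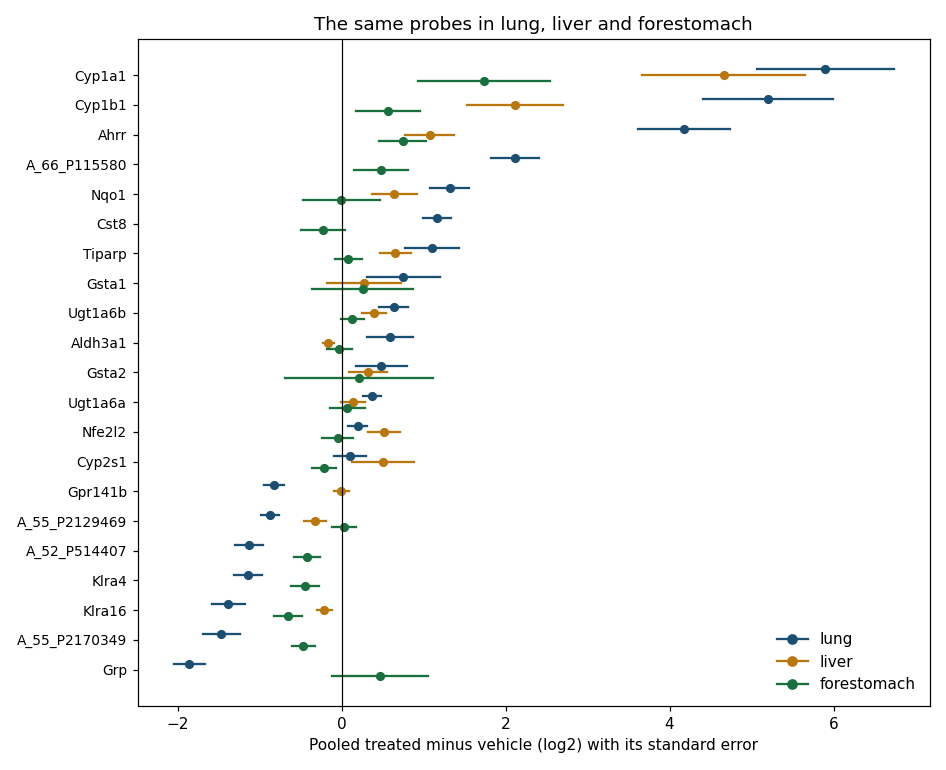
Pooled treated minus vehicle difference (log2, points) with its standard error (lines) in lung, liver and forestomach for the named probes kept in lung and in at least 1 other tissue. Cyp1b1 stands at 5.20 in lung, with no difference from the other tissues past the threshold, the lung point of Ahrr rests on vehicle lungs that were not well above background, and Grp is at -1.86 in lung and 0.47 in forestomach.

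The number of calls depended on single animals. Leaving out D0 mouse 1 or D0 mouse 2 left limma with 0 calls (1786 and 1411 probes had an unadjusted p under 0.05), and D0 mouse 3 left 2, whereas leaving out D0 mouse 4 gave 28. Leaving out D3 mouse 16, D3 mouse 19, D2 mouse 13 or D2 mouse 15 left 7, 7, 7 and 6 calls, and D3 mouse 17 left 11. Leaving out D2 mouse 12, the lung with skeletal muscle markers, gave 46 calls, 16 higher and 30 lower, with all 17 among them, and leaving out D1 mouse 7 gave 26, again with all 17. Grp and the brighter Slc5a12 probe remained called in 13 of the 15 such fits, with highest adjusted p of 0.056 and 0.064, and Klra7, Ahrr and A_55_P2129469 in 12. A_66_P115580 remained called in 11 and the dim Septin3 probe in 10. Cyp1a1, Gzmb, Cst8, Gpr141b, Klra4 and Klra16 remained called in 7, A_52_P514407 and A_55_P2170349 in 6, and Cyp1b1 and the second Slc5a12 probe in 4. Without the high dose limma called 0 (1861 had an unadjusted p under 0.05, smallest adjusted p 0.117), and without the low dose 32 were, including all 17. With scale normalisation between arrays, limma called 4 probes, of which 0 were higher and 4 lower, and with the scanner's own log ratio 1 was higher and 1 lower. With that log ratio Klra7, Klra4 and Gpr141b stood at -2.16, -2.15 and -2.39, the dim Septin3 probe at -2.34, the second Slc5a12 probe at -3.01 and A_52_P514407 at -2.14, each more than 1.5 times its value above and without a call (adjusted p from 0.183 upwards).

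**Figure D5:**
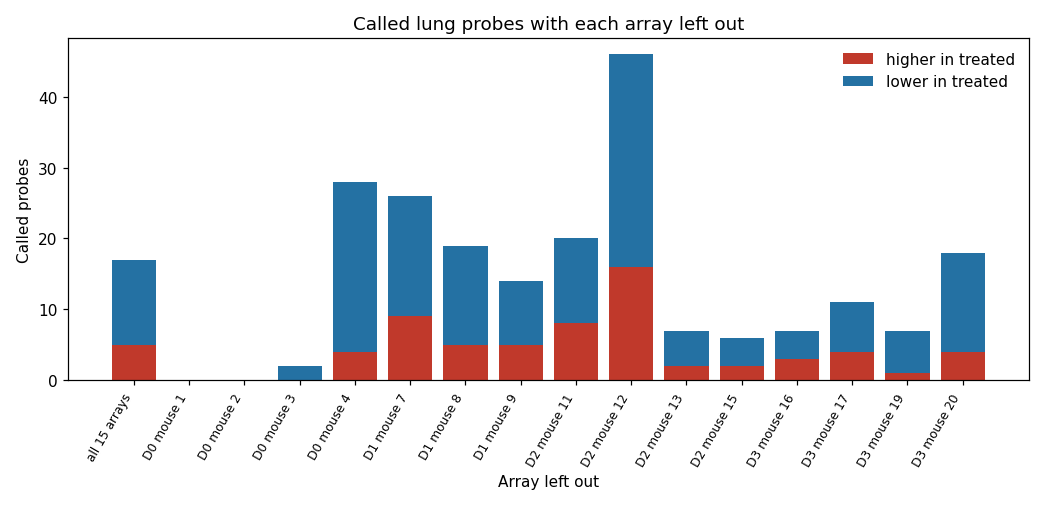
Number of called lung probes (bars, higher in treated in red and lower in blue) with all 15 arrays and with each array left out in turn. The count ran from 0 without D0 mouse 1 or mouse 2 to 46 without D2 mouse 12.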

How the data were processed

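The authors deposited a scanner file for each array, with median intensities of both channels and a log10 ratio (Feature Extraction 10.7.3.1 for lung), and a table of log2 ratios that they normalised by LOWESS without background subtraction. Here the deposited median intensities of each channel were used the same way: log2(red/green), loess within array, control and outlier spots left out, spots of a probe averaged (55681 probes). Lung probes well above background on at least 4 arrays were kept (31786). Probes were named through RefSeq accessions with the GRCm38.p6 gene table (26413 of 33064 with an accession), and for a gene with several probes the brightest was used.

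limma 3.58.1 (R 4.3.3) stood in for the published MAANOVA test, with treatment and slide as terms and Benjamini-Hochberg adjustment. The threshold for a call was 1.5-fold together with an adjusted p no greater than 0.05. The scripts were tested on simulated data. Named genes were the called genes and every kept AhR target. The natural killer and Ly49 lists were written after the called genes had been seen, and carry no test. The members and lists were chosen with earlier results of these data known. Lung was compared with liver and forestomach in fits over both tissues, which share animals: same-numbered samples are the same mouse, with a within-mouse correlation of 0.073 (liver) and 0.072 (forestomach). The liver columns of the deposited table did not match the scanner files and were not used. Alternatives covered slide, intensities, background, scaling, filter, doses and single arrays.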

Additional observations from a re-analysis of the deposited data

Results flagged for a closer look

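Of 138 groups of 4 lungs examined, 8 had 1 lung far from the other 3, where chance alone gives about 1 in 20. The gap to the nearest lung as a share of the whole range was 0.967 for the skeletal muscle score and 0.917 for the oesophageal squamous score at D2, both from mouse 12. It was 0.831 for the dim Septin3 probe at D2 (mouse 11) and 0.929 for Cyp2s1 in the vehicle group (mouse 1). It was 0.967 for the white fat score in the vehicle group (mouse 4), and at D3 it was 0.915 for brown fat (mouse 20), 0.844 for the liver score (mouse 19) and 0.852 for Ugt1a6a (mouse 19).

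For Gpr141b, treated minus vehicle was lower in lung than in liver (-0.82 in log2 ratio, limma adjusted p = 0.044). The probe was well above background on 4 of 13 liver arrays and on 4 of 15 lung arrays, so its liver value is mostly a background reading, and no effect or lack of one in liver can be read from it.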

How the results depend on the processing

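Of 691 values of the named probes under alternative settings, 491 kept their direction and their side of the threshold, 195 lost the call, 5 gained it and 0 turned direction. The pooled count of 17 became 7 (4 higher, 3 lower) with no slide term, 2 with the scanner log ratio, 4 with scaling between arrays, 0 with probes well above background on all 15 arrays (21035 tested, smallest adjusted p 0.0503 in limma, 1661 at an unadjusted p under 0.05), 32 without the low dose and 0 without the high dose. With normexp background (on median signals, since mean signals were not used here) it was 19, with the deposited values 16, and with the mean of the dose effects 12. The 13 level probes became 3, 1, 4 and 0 in the first 4 of these. Leaving out 1 array gave 0 to 46 called and 0 to 40 level probes. Between doses 0 were called in every setting tried.

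With mouse number as a random replicate block, calls for lung against liver went from 13 to 29 and for lung against forestomach from 0 to 2. Lung against liver gave 5 with no slide term, 25 with the scanner log ratio, 26 with no filter and 3 to 31 with 1 lung array left out, and lung against forestomach gave 3 with no filter and 0 to 5 with 1 array left out.

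Grp stood at -1.58 with normexp and -4.23 with the scanner log ratio, where its adjusted p was 0.183. Alternatives for list medians were chosen after seeing the data: over 27 settings the natural killer list ran from -1.08 to -0.32 and the AhR list from 0.60 to 0.87. The spike-in shift of 0.12 ran from 0.028 (without D3 mouse 20) to 0.165 (without D2 mouse 13) with 1 array left out, also chosen after seeing the data. Signal over background limits the folds of dim probes, and 4 vehicle lungs limit every comparison.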

Other observations

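Several genes lay just below the threshold, and the ones given here were chosen after their values had been seen. Lama1, a laminin chain of basement membranes, had a pooled difference of 2.01 (limma adjusted p = 0.079), and Tmem213 one of 1.16 (adjusted p = 0.059). Map2, which encodes a microtubule-associated protein, stood at -0.60 (adjusted p = 0.055). Clec9a, a lectin receptor of cross-presenting dendritic cells, stood at -0.65 (adjusted p = 0.082) in lung, and its lung effect was lower than its liver effect by 1.09 (adjusted p = 0.023).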
